A study of Mus musculus with 4 samples.

Results

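The genes described here are 45 mouse genes of the integrated stress response and of the amino acid supply it controls: the stress transcription factors and eIF2 kinases, the enzymes of amino acid synthesis, the amino acid transporters and the cytosolic aminoacyl-tRNA synthetases. They were chosen by name, and each gene took the probe set with the highest mean signal over the arrays among probe sets annotated with that symbol alone. Of the 45 genes, 42 had such a probe set and 38 were bright enough to test, out of 7514 genes tested on the array. Mars, Mthfd1l and Pycr1 had no probe set with that single symbol and were not analysed here, and Cbs, Slc7a1, Slc7a3 and Slc7a11 lay under the filter on dim probe sets, so that for these genes only signals are given.

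RNA came from NF639 cells, a line established from an ErbB2-driven mammary tumour of a mouse. The resistant pool (2 arrays) is labelled as a population of these cells resistant to epigallocatechin gallate (EGCG), a polyphenol abundant in green tea, and the original population (2 arrays) is the line it came from. The study's design text takes the RNAs from 2 separate experiments, and the labels used here name no dose and do not say whether EGCG was present at harvest. Both groups are populations of 1 cell line, so the p-values speak for these cultures only. The test also takes much of each gene's spread from other probe sets of similar signal. The question is which transcript levels of the response differ between the resistant pool and the line it came from.

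In the integrated stress response, kinases such as PERK (Eif2ak3) and GCN2 (Eif2ak4) phosphorylate the translation initiation factor eIF2 when unfolded protein or uncharged tRNA accumulates. General translation then slows, while the ATF4 mRNA is translated more, and ATF4 protein switches on genes for amino acid synthesis, import and tRNA charging. ATF4 is controlled largely at translation, so its mRNA level alone does not report its activity. Arrays measure mRNA only.

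ATF4 pairs with C/EBP proteins on composite elements with the core TGATGNAA, where N is any base. This core was searched for on both strands in the RefSeq promoter windows of GRCm38.p6, which run from 250 bases before to 50 bases after a gene's start. Of the 45 genes, 36 had a window and 12 of those (33.3%) held at least 1 match, against 4.51% of all 27025 genes with a window and 8.33% of 84 other genes of the same pathways. The 45 genes were chosen by name for this pathway and include known ATF4 targets, so a higher share was built into the list. A match describes the letters of the window and is not evidence of binding. The windows below show genes without and with a match. Phgdh and Sars have none and were fitted lower in resistant cells. Trib3 and Asns, known ATF4 targets that were also fitted lower, have a match. So does Tars, a synthetase gene that was fitted higher. On their chosen probe sets Trib3, Asns and Tars passed in no fit. The value of Asns was above 0 without original 2 (0.08) or without resistant 1 (0.05). The coordinates are chr3:98339920-98340219, minus strand for Phgdh, chr3:108445210-108445509, minus strand for Sars, chr2:152344011-152344310, minus strand for Trib3, chr6:7693160-7693459, minus strand for Asns and chr15:11399609-11399908, minus strand for Tars. Each reads 5′ to 3′ in the direction of the gene, with matches to the core, on either strand, in capitals.
Phgdh: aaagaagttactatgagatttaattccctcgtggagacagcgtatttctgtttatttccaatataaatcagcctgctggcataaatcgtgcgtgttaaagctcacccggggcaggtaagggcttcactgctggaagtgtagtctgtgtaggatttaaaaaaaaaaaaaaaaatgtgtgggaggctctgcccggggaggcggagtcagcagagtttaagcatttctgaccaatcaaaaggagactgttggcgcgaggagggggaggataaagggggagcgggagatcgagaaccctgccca
Sars: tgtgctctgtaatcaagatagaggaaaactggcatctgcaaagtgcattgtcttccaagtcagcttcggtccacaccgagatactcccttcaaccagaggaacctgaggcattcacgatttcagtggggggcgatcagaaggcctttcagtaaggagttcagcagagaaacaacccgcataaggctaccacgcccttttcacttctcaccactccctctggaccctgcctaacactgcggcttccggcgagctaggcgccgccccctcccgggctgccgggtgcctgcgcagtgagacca
Trib3: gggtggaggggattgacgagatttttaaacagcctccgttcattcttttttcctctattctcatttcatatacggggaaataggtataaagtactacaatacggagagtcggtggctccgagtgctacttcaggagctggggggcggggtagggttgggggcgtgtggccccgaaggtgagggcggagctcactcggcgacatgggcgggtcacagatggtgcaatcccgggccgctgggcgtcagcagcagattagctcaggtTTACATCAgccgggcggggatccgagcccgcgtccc
Asns: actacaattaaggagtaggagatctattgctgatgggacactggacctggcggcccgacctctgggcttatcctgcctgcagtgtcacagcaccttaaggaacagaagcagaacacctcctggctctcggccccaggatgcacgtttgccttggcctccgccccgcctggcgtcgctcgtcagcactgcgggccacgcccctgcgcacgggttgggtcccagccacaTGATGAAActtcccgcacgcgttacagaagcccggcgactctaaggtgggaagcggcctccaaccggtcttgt
Tars: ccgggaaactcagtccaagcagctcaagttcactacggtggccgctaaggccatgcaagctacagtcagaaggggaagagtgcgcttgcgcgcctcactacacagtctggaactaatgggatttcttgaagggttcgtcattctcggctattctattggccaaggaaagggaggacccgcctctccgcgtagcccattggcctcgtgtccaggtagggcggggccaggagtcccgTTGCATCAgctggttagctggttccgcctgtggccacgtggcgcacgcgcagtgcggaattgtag
The match began at base 228 of the window in Asns, 265 in Trib3 and 236 in Tars. Chac1, Got1, Slc1a4, Gars, Yars, Iars and Pycr1 also had 1 match each, and Aars and Slc7a11 had 2. No window was listed for Cth, Eif4ebp1, Slc7a5, Slc7a3, Slc1a5, Wars, Nars, Mars or Cars.

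The deposited signals are MAS5 intensities, whose 2% trimmed mean was 500.2 on every array, with median signals of 114 to 135.2. The array of original 2 stood apart in its 5′ probe set for 18S ribosomal RNA, with a signal of 346.7 and 624.3 in the resistant pool and 362.4 and 4005 in the original population. The 7 probe sets of the BioB, BioC and BioDn spikes, which are added at hybridisation, were brighter on the array numbered 2 in both groups, by 1.48 to 2.29 times in the resistant pool and 1.39 to 2.11 times in the original population. The replicate number therefore marks a technical difference that crosses the groups, and values are also given with it as a term in the fit and within each number. Of 12 luminal epithelial markers only Erbb2 passed the filter (280.7 and 326.2 in the resistant pool, 319.7 and 299.4 in the original population), while Epcam, Cdh1 and Krt18 lay below 30 on every array. Of 10 fibroblast markers 7 passed, and these moved both ways. The summed signal of all 10 was 9925 and 6942 in the resistant pool and 8250 and 6502 in the original population. Col3a1 rose (log2 fold change 1.99, limma adjusted p = 0.0477), and with the replicate number as a term 4 were higher (Col3a1, Postn, Col1a1 and Pdgfra) and 2 lower (Dcn at -2.15 and Col1a2 at -0.62). Of 9 measured leukocyte markers 5 passed. The sums over all 9 were 641 and 553.3 in the resistant pool and 764.3 and 529.7 in the original population. Endothelial (7 measured) and adipocyte (4 measured) markers all lay under the filter. The part of these markers in the results below was not tested.

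The fitted values farthest below 0 were those of Cth and Phgdh, enzymes of cysteine and serine synthesis, while Atf4 and its partners Cebpb and Cebpg were fitted near 0. The median log2 fold change, resistant minus original, was -0.13, beside 0.02 over all 7514 genes, and 25 of 38 genes (65.8%) were fitted below 0, beside 47.3% of all genes. No gene of the 38 passed limma's test at a Benjamini-Hochberg adjusted p under 0.05, a threshold that 0.319% of all genes passed. At an unadjusted p under 0.05 there were 4, all lower (Cth, Phgdh, Gpt2 and Got1), where 8.09% of all genes had such a p and 4.02% were lower with it. With the replicate number as a term 4 passed, Cth, Phgdh and Sars lower and Ddit4 higher, which is 10.5% of the 38 beside 6.07% of all genes (3.19% lower, 2.87% higher). Cth was the 1 gene of the 38 whose mean in a group, the resistant pool, lay under the filter's level, so it had to differ to be tested, and these counts are a description that supports nothing about the set. With 1 residual degree of freedom, that fit took each spread entirely from probe sets of similar signal, and its p-values rest on that estimate. The arrays of the 2 groups did not overlap for 8 genes lower in resistant cells (21.1%, beside 17.3% of all genes) and for 2 higher (5.26%, beside 19.9%), where 37.2% of all genes had no overlap in either direction. In bulk RNA a lower signal can come from fewer expressing cells or from less RNA per cell, which cannot be told apart here.

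**Figure D1:**
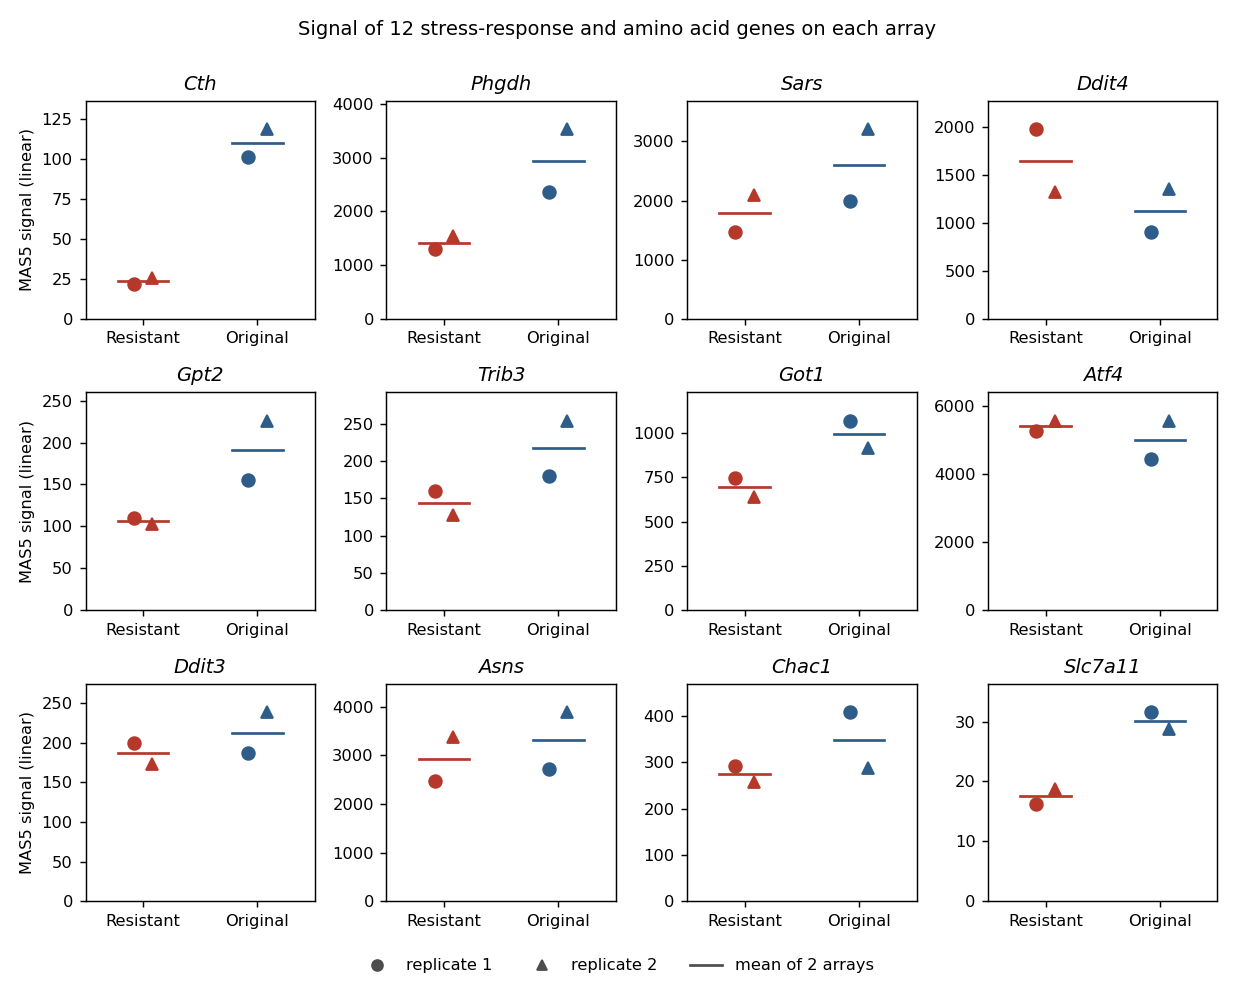
MAS5 signal (linear axis from 0) of 12 genes on each array, with Resistant on the left and Original on the right of every panel; circles are replicate 1, triangles replicate 2 and lines the mean of 2 arrays. Cth, Phgdh, Gpt2, Trib3, Got1 and Slc7a11 do not overlap between the groups, while Atf4, Ddit3, Asns, Chac1, Sars and Ddit4 do.

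Among the synthesis genes the fitted values farthest from 0 were those of Cth and Phgdh, followed by Gpt2. Cth encodes cystathionine gamma-lyase, which makes cysteine from cystathionine. Its signal was 21.5 and 25.7 in the resistant pool, against 101.1 and 118.7 in the original population. Every resistant array was thus far below every original one, and the resistant signals lay under the filter's level of 51.9. The log2 fold change was -2.09 ± 0.44 (SE; limma adjusted p = 0.133), with a 95% interval of -3.06 to -1.11. It was -2.09 within each replicate number, and the fit with the number as a term gave an adjusted p of 0.000336. Cth entered the test only through its original arrays, so a difference was built into its selection, and these p-values and the exact fold are given as description. With a larger pseudocount of 16.7 the log2 fold change was -1.65, as resistant signals were dim.

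The other genes of cysteine supply were dim. Cbs, the enzyme before Cth in the transsulfuration route, had signals of 12.5 and 32.6 in resistant cells and 27.3 and 57.1 in original cells, which overlap. Slc7a11, the cystine importer that is also a classic ATF4 target, had 16.3 and 18.7 in resistant cells and 31.6 and 28.7 in original cells, which do not. Neither was tested. Gclc, which carries out the first step from cysteine to glutathione, had 962 and 1141.5 in resistant cells and 664.1 and 959.5 in original cells. Its log2 fold change was 0.39 ± 0.22 (SE, adjusted p = 0.763), and it did not pass. Gclm, the other subunit of that enzyme, was fitted at -0.20 (adjusted p = 0.959). Gss, of the next step, was fitted at -0.22 (adjusted p = 0.933).

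Phgdh, the first enzyme of serine synthesis from glycolysis, had signals of 1290.4 and 1530.8 in the resistant pool, against 2358.7 and 3527.7 in the original population. The means were 1411 ± 170 and 2943 ± 827 (SD, n = 2 per group), so resistant cells had 0.479 of the original level. The groups did not overlap, and the wider spread was within the original population. The log2 fold change was -1.04 ± 0.21 (SE; limma adjusted p = 0.125; 95% interval -1.51 to -0.56), with -0.87 between arrays numbered 1 and -1.20 between arrays numbered 2. Phgdh passed with the number as a term (adjusted p = 2.61e-09). It also passed without original 1 (-1.33, adjusted p = 0.00276) and without resistant 2 (-1.16, adjusted p = 0.0366), but not without original 2 (-0.75, adjusted p = 0.322) or resistant 1 (-0.91, adjusted p = 0.121). All 4 of its probe sets were lower, at log2 fold changes of -1.04 to -0.57. All 4 carry the suffix for probes that may cross-hybridise, and other probe sets annotated to Phgdh also name a predicted gene, so signal from a related copy cannot be separated.

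The later steps of the serine and one-carbon route differed less than Phgdh and did not pass. Psat1, the aminotransferase of the next step, had 4456.2 and 5438 in resistant cells and 4421.5 and 6368.1 in original cells, a log2 fold change of -0.11 with a 95% interval of -0.57 to 0.35. Psph, the phosphatase of the last step, had 787.7 and 812.2 in resistant cells, against 807.5 and 1402.7 in original cells. Its fitted difference (-0.41, adjusted p = 0.793) came from original 2, since the arrays numbered 1 differed by -0.04 and those numbered 2 by -0.79. Among the enzymes that pass serine's carbon to folate, Mthfd2, the mitochondrial dehydrogenase and cyclohydrolase, had a log2 fold change of -0.28. The cytosolic hydroxymethyltransferase Shmt1 had -0.15. All 4 probe sets of Shmt1 were below 0 (-0.43 to -0.12), and each one not chosen had lower arrays without overlap. The mitochondrial hydroxymethyltransferase Shmt2 had 0.19, though its 4 retained probe sets split into 2 above and 2 below 0. None of these 3 genes passed in any fit, and 5 of the 6 tested genes of the route were fitted below 0 (median -0.21, but -0.04 without original 2 and -0.43 without original 1).

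The 5 tested genes of the other synthesis routes were all fitted below 0, with a median log2 fold change of -0.51, and 4 of them, Cth included, had lower arrays without overlap, where 17.3% of all genes did. Gpt2, the mitochondrial alanine aminotransferase, had 109.6 and 103.2 in resistant cells, against 155.5 and 226.3 in original cells. Its log2 fold change was -0.80 ± 0.31 (SE, adjusted p = 0.576), all 3 of its probe sets were lower (-1.11 to -0.75), and 1 of them that was not chosen by the rule passed with the number as a term (adjusted p = 0.00417). Got1, the cytosolic aspartate aminotransferase, had 749.1 and 640.8 in resistant cells and 1071.3 and 914.4 in original cells. The fitted value was -0.51 ± 0.19 (SE, adjusted p = 0.554; 0.0707 with the number as a term) and -0.52 and -0.51 within the numbers.

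Aldh18a1, which makes the proline and ornithine precursor, had 1344 and 1537 in resistant cells and 1657.5 and 1920.2 in original cells, a log2 fold change of -0.31 ± 0.17 (SE, adjusted p = 0.765). Of its 5 probe sets 4 were lower. Asns, the asparagine synthetase and a textbook ATF4 target, had 2465.2 and 3375.2 in resistant cells and 2725.3 and 3893.6 in original cells. The groups overlapped, and the log2 fold change of -0.18 had a 95% interval of -0.66 to 0.31 (adjusted p = 0.948).

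**Figure D2:**
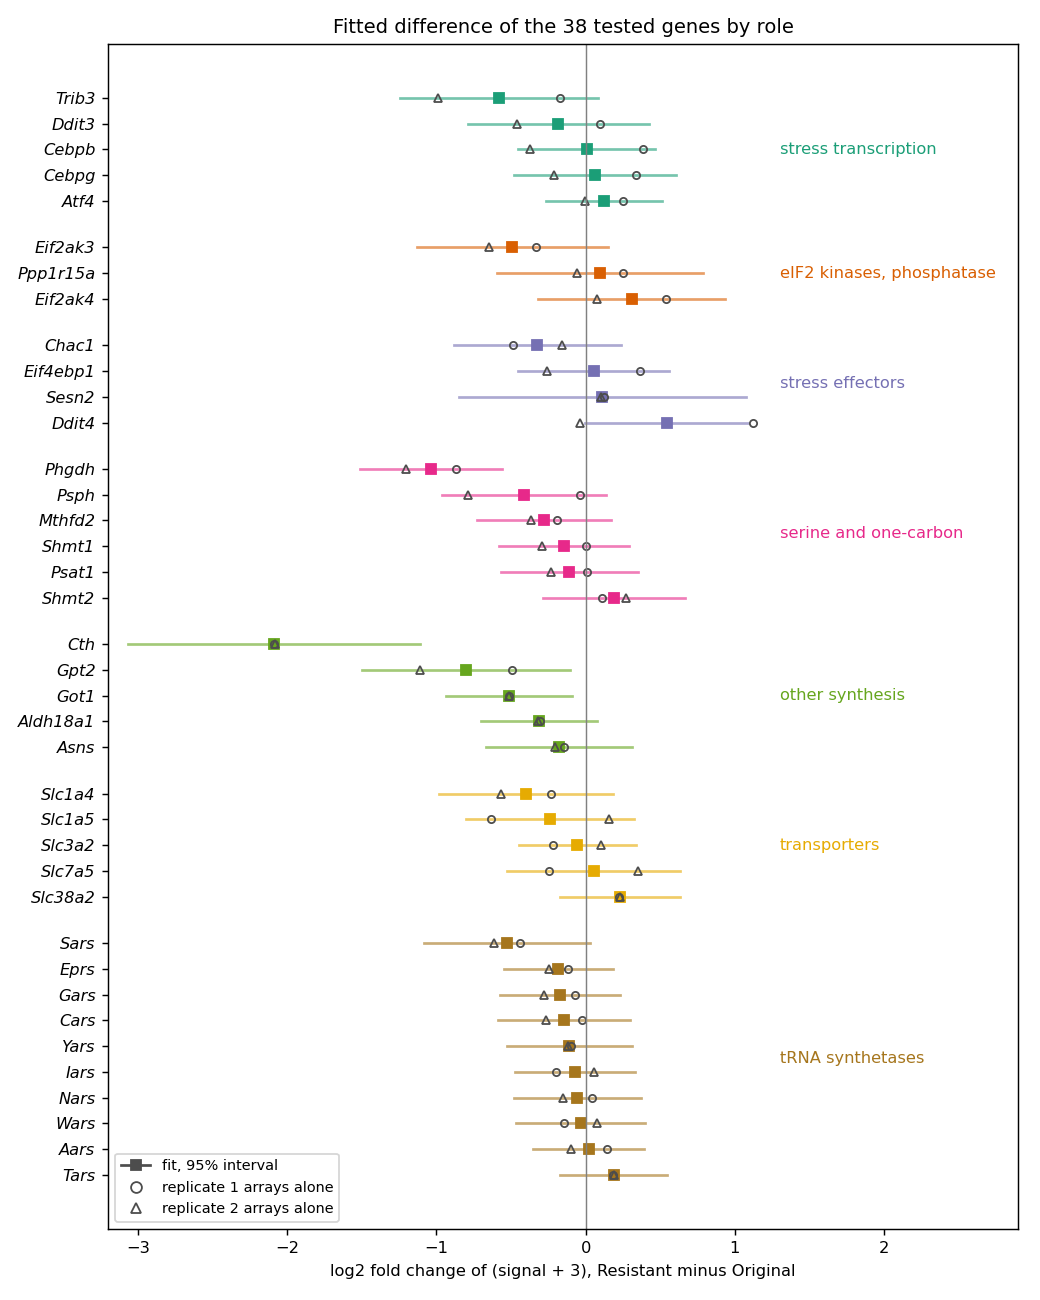
Log2 fold change of signal + 3, Resistant minus Original (x axis), for the 38 tested genes grouped by role; squares are the fit with its 95% interval, open circles and triangles the difference between arrays numbered 1 and numbered 2. Cth and Phgdh lie farthest to the left at -2.09 and -1.04, the synthetases apart from Sars lie between -0.18 and 0.19, and Ddit4 lies at 1.12 for number 1 but -0.04 for number 2.

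The 5 genes of stress transcription did not pass and lay on both sides of 0. Their median log2 fold change was 0.01, with a range of -0.275 to 0.0844 when 1 array was left out. Atf4 itself had signals of 5285 and 5565.6 in the resistant pool and 4437.1 and 5583.8 in the original population. Its log2 fold change was 0.12 ± 0.18 (SE, adjusted p = 0.962; 95% interval -0.27 to 0.51), and its other retained probe set gave -0.13. Ddit3, which encodes the pro-apoptotic factor CHOP, had 200.2 and 173 in resistant cells and 187 and 239 in original cells (log2 fold change -0.18, adjusted p = 0.966). Both genes thus overlapped between the groups.

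Cebpb, a C/EBP partner of ATF4, had 2703.6 and 1825.5 in resistant cells and 2068.5 and 2360.3 in original cells, and its difference was 0.39 for arrays numbered 1 and -0.37 for those numbered 2. Cebpg, another partner, behaved alike, with 616.2 and 393.2 in resistant cells, 487.7 and 456 in original cells, and differences of 0.33 and -0.21. For both, the spread between the resistant cultures exceeded the difference between the groups.

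Trib3, the pseudokinase that ATF4 and CHOP induce and that restrains them in turn, had 159.8 and 126.9 in the resistant pool, against 180 and 254.3 in the original population. The groups did not overlap, and the log2 fold change was -0.58 ± 0.30 (SE, adjusted p = 0.738). Its second probe set, a little dimmer, read 111.8 and 99.6 in resistant cells and 231.2 and 190.5 in original cells. There the log2 fold change was -0.97 (adjusted p = 0.375), and it passed with the number as a term (adjusted p = 0.0114). The second probe set carries the suffix for probes that may cross-hybridise.

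The eIF2 kinases and phosphatase did not pass. Eif2ak3, the kinase PERK that senses unfolded protein, had 338.7 and 205.1 in resistant cells and 427.3 and 322.6 in original cells (log2 fold change -0.49, adjusted p = 0.787). Eif2ak4, the kinase GCN2 that senses uncharged tRNA, had 273.6 and 188 in resistant cells and 187 and 178.1 in original cells (0.31, adjusted p = 0.898). The arrays of Eif2ak4 did not overlap, but resistant 2 exceeded original 1 by only 1 signal unit, and those of Eif2ak3 overlapped. Ppp1r15a, the stress-induced phosphatase subunit GADD34 that reverses eIF2 phosphorylation, had 193.9 and 258.7 in resistant cells and 162.1 and 269.5 in original cells, with a log2 fold change of 0.10 (adjusted p = 0.993).

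Ddit4, the stress-induced inhibitor of mTORC1 signalling also called REDD1, was the 1 gene of the 38 that passed in a fit and was higher. Its signal was 1977.4 and 1318.7 in the resistant pool, against 907.1 and 1350.2 in the original population. Only resistant 1 lay above both original arrays, so the groups overlapped. The log2 fold change was 0.54 ± 0.25 (SE, adjusted p = 0.672), and with the number as a term adjusted p = 0.025. The difference was 1.12 between arrays numbered 1 and -0.04 between arrays numbered 2, so that the value rests on 1 pair. Without resistant 1 it was 0.25, and without original 1 it was 0.26.

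Chac1, a glutathione-degrading enzyme induced by ATF4, had 290.8 and 257.2 in resistant cells and 408.2 and 287.5 in original cells (log2 fold change -0.32, adjusted p = 0.875). Sesn2, a leucine sensor that restrains mTORC1, had 171.9 and 381 in resistant cells and 157.7 and 354.7 in original cells. Its groups nearly coincided (0.11, 95% interval -0.85 to 1.07). On this probe set the array numbered 2 was higher within each group, by 1.14 in resistant cells and 1.16 in original cells on the log2 scale. The dimmer second probe set of Sesn2 did not repeat this, at 0.36 in resistant cells and -1.05 in original cells. Eif4ebp1, the translation repressor that mTORC1 inactivates, had a log2 fold change of 0.05.

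None of the 5 tested amino acid transporters passed, and their median log2 fold change was -0.06, with a range of -0.23 to 0.12 when 1 array was left out. Slc1a4, an exchanger of alanine, serine and cysteine, had 203.3 and 160 in the resistant pool, against 238.9 and 238.5 in the original population, and all 3 of its probe sets were lower (-0.67 to -0.40). Its related glutamine exchanger Slc1a5 had 262.8 and 380.2 in resistant cells and 408.7 and 340.1 in original cells, which overlap (-0.24, adjusted p = 0.929). Slc38a2, the transporter SNAT2 that amino acid shortage induces, had 4238.8 and 5165.6 in resistant cells and 3627 and 4390 in original cells (0.23 ± 0.18 SE, adjusted p = 0.877).

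The 2 chains of the leucine exchanger LAT1 stayed within their spread, as Slc3a2 had a log2 fold change of -0.06 (95% interval -0.45 to 0.34) and Slc7a5 0.05 (-0.53 to 0.63). Among the dim transporters, the cationic amino acid carrier Slc7a1 had 39.8 and 8.4 in resistant cells and 87.4 and 40.3 in original cells, without overlap, and its relative Slc7a3 had 18.2 and 18.7 in resistant cells and 16.1 and 14 in original cells. MAS5 values at this level carry large relative errors.

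The cytosolic tRNA synthetases of the list, which charge tRNAs and include ATF4 targets, had a median log2 fold change of -0.09. Of these 10 genes 8 were fitted below 0. Sars, which charges tRNA with serine, differed most. It had 1468.1 and 2098.4 in the resistant pool, against 1989.8 and 3207.1 in the original population, so that resistant 2 lay above original 1. The log2 fold change was -0.53 ± 0.25 (SE, adjusted p = 0.701), it was -0.44 and -0.61 within the numbers, and Sars passed with the number as a term (adjusted p = 0.0142). Its second probe set gave -0.48 (adjusted p = 0.0452 in that fit). On the chosen probe set, both pairs of same-numbered arrays were thus lower in resistant cells. The size of the value changed when 1 array was dropped, but it stayed below 0. Dropping an original array gave -0.87 (number 1) or -0.18 (number 2). Dropping a resistant array gave -0.27 (number 1) or -0.78 (number 2). Such fits leave the replicate numbers unequal between the groups, and number 2 was higher by 0.69 in original and 0.52 in resistant cells.

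Tars, for threonine, had 3590.3 and 3919.8 in resistant cells and 3151.6 and 3436.7 in original cells, a log2 fold change of 0.19 ± 0.16 (SE, adjusted p = 0.884) that was the same within both numbers to 2 decimals. Eprs, for glutamate and proline, had 1791.1 and 1787.8 in resistant cells and 1939 and 2121.8 in original cells (-0.18, adjusted p = 0.893). These were the synthetase genes without overlap between the groups. The other 7, Aars, Cars, Gars, Iars, Nars, Wars and Yars, overlapped on their chosen probe sets, with log2 fold changes of -0.17 to 0.02. None of these 7 passed in any fit. All 4 probe sets of Wars were below 0 (-0.42 to -0.03), and those at -0.42 and -0.24 had lower arrays without overlap.

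The arrays of 1 group also differed from each other. Original 2 exceeded original 1 in 31 of the 38 genes (81.6%, beside 44.5% of all genes), by a median of 0.27 on the log2 scale, where the median over all genes was -0.04. Resistant 2 exceeded resistant 1 in 24 of 38 (63.2%, beside 43.2% of all genes), by a median of 0.14, where all genes had -0.06. Of the 60 other tested genes of the pathways, number 2 was higher in 65% within each group. In original 2 this held for all 11 further cytosolic synthetase and scaffold genes, but for 37.5% of the mitochondrial synthetases. Arrays numbered 2 had the lower median signal, 114 against 128.6 (resistant) and 115.2 against 135.2 (original). The part of a gene's brightness in these shares was not tested. In original 2 the higher genes included Sesn2 (1.16), Psph (0.80), Sars (0.69), Phgdh (0.58), Psat1 (0.53), Asns (0.52) and Mthfd2 (0.44). The second probe set of Sesn2 was lower there, at -1.05. All 10 synthetases were higher in original 2. Original 2 is also the array with the high 18S signal, and the part of that in these values was not tested. Without original 2 the median log2 fold change of the 38 genes, resistant minus original, was -0.00471, and without original 1 it was -0.27.

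**Figure D3:**
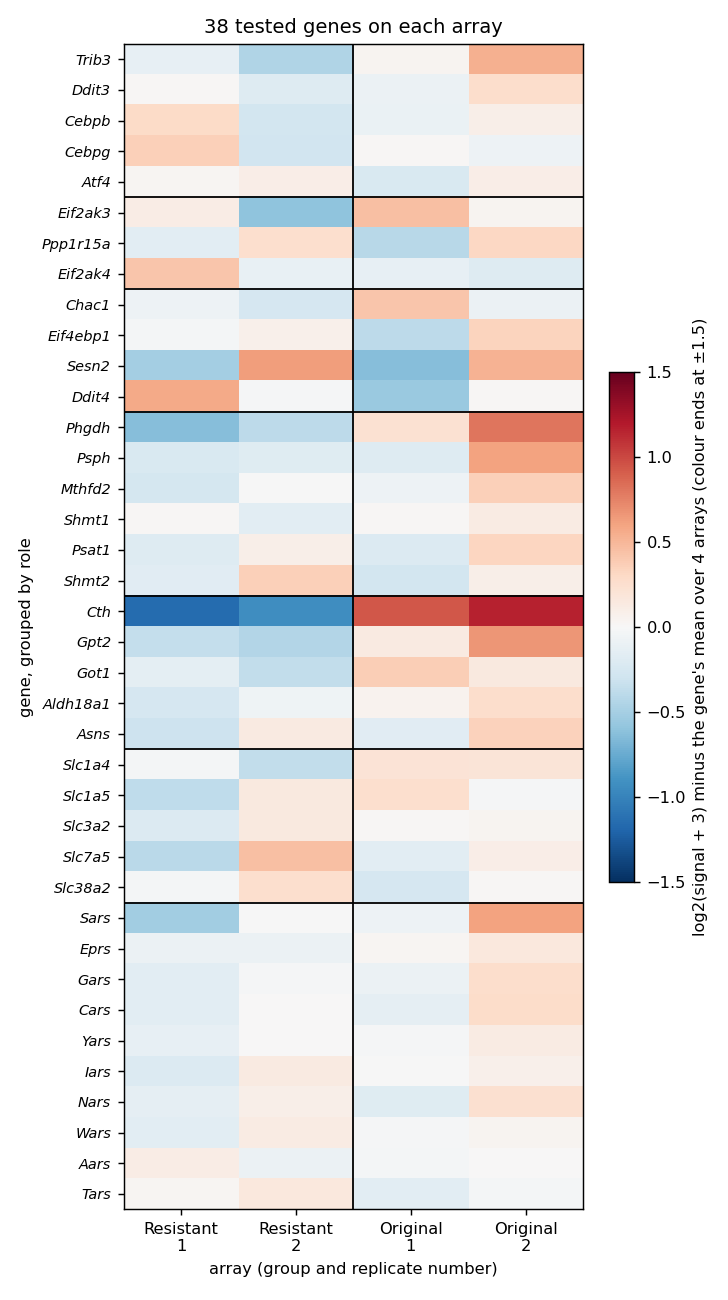
Log2(signal + 3) minus the gene's mean over the 4 arrays (colour, ending at ±1.5) for the 38 tested genes (rows, grouped by role) on the 2 resistant and 2 original arrays (columns). Cth and Phgdh are blue in both resistant columns and red in both original ones. Sesn2 (on its chosen probe set) and Ppp1r15a differ between the replicate numbers in the same way in both groups.

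The fitted values were also set against the promoter windows, as a description with no test. Over the 10 tested genes with a match the median log2 fold change was -0.18 (-0.58 for Trib3 to 0.19 for Tars, 8 below 0). Over the 21 tested genes with a window but no match it was -0.11 (-1.04 for Phgdh to 0.54 for Ddit4, 12 below 0).

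The genes passing with the number as a term and lower in resistant cells, Cth, Phgdh and Sars, all lie on chromosome 3, as does the dim Slc7a11. Over the 382 tested genes of chromosome 3 the median log2 fold change was -0.30, and 84.8% were fitted below 0. The 10 nearest tested neighbours, 5 on each side, had a median of -0.33 around Cth, -0.23 around Phgdh and -0.39 around Sars, so Sars differed little from its neighbours (which ran from -0.65 to 0.04) while Cth and Phgdh were lower than all of theirs (lowest -0.63 and -0.54). After the chromosome's median was subtracted, Cth stood at -1.78, Phgdh at -0.73 and Sars at -0.22. On chromosome 15 the median over 306 genes was 0.29, and Atf4 (0.12), Tars (0.19) and Slc38a2 (0.23), which were fitted above 0, all lay below it. Aldh18a1, Got1, Psat1 and Slc3a2 lie on chromosome 19, whose 277 tested genes had a median of -0.15. Relative to the median of their own chromosome 28 of the 38 genes were lower, with a median of -0.16. These chromosome values share the arrays of the comparison, and their part in the genes' values was not tested.

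**Figure D4:**
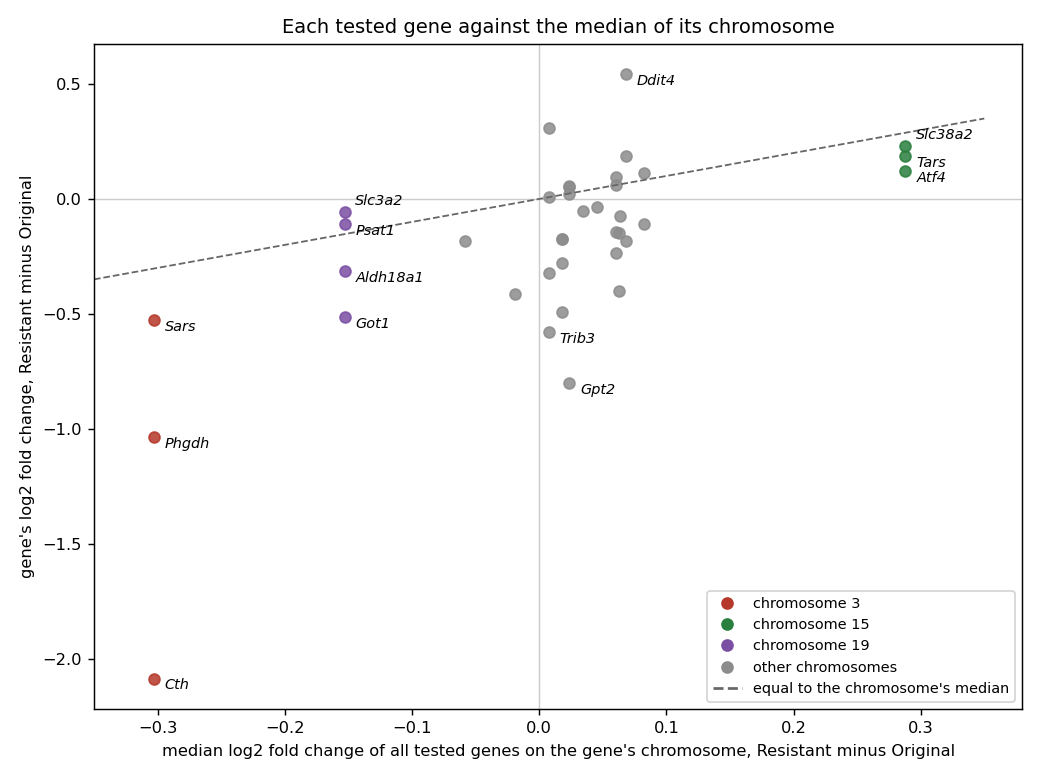
Log2 fold change of each of the 38 tested genes (y axis) against the median log2 fold change of all tested genes on the same chromosome (x axis), both Resistant minus Original; the dashed line marks equality. The 3 genes of chromosome 3 lie at -0.30 on the x axis with Cth and Phgdh far under the line, and the 3 genes of chromosome 15 lie at 0.29 and under the line.

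The rest of the same pathways was described from a longer list of stress-signalling genes, amino acid enzymes and transporters, and other cytosolic and mitochondrial synthetases. Of its 60 tested genes 31 were fitted below 0, the median log2 fold change was -0.00357, and 1 passed, where 0.319% of all genes did. Vldlr, a lipoprotein receptor gene that ATF4 can induce, fell, with 66.6 and 57.1 in the resistant pool against 372.2 and 243.4 in the original population (-2.23 ± 0.33 SE, limma adjusted p = 0.035). Its probe set carries the suffix for probes that may cross-hybridise, and its resistant signals lay near the filter's level of 51.9. With the number as a term 3.33% of the 60 genes passed, beside 6.07% of all genes. These were Vldlr and the taurine transporter gene Slc6a6. Slc6a6 had 2673.2 and 2458.1 in resistant cells, against 1520.5 and 1546.8 in original cells. Its log2 fold change was 0.74 ± 0.16 (SE, limma adjusted p = 0.159, and 0.000104 with the number). The 8 tested mitochondrial synthetases had a median of -0.07, near the -0.09 of the cytosolic ones named above, and the 11 further cytosolic synthetase and scaffold genes had -0.12.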

How the data were processed

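RNA from 4 NF639 cultures, 2 of the EGCG-resistant pool and 2 of the original population, was hybridised to Affymetrix Mouse 430A 2.0 arrays, 1 per culture. Per the submitters' processing notes the authors used MAS5, and the deposited table holds its linear signal intensities; no software version is named there. For arrays the number of arrays limits the precision.

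Of 22690 probe sets 64 were array controls and took no part. The platform annotation gave 1 symbol for 20380 of the others, several for 691 and none for 1555. Signals were scaled to a common 2% trimmed mean, and log2(signal + 3) was taken, where 3 is the rounded 10th percentile of signals. Fold changes on this scale understate the change of dim genes. Probe sets with a mean signal under the 40th percentile (51.9) were left out, and 13576 were tested. limma 3.58.1 in R 4.3.3 (lmFit, eBayes with a mean-variance trend) fitted resistant minus original, two-sided, with Benjamini-Hochberg adjustment over all 13576. The fit was tested on simulated data.

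Each gene takes its brightest probe set with 1 symbol. The members and lists were chosen with earlier results of these data known, so no list has a test. Signals on each array are given for genes past the threshold in either fit, the main regulators and classic ATF4 targets, and up to 12 others with the largest difference and no overlap; further genes were named after their values were seen (among them Psat1, Psph, Cbs, Slc7a1, Slc7a3, Slc1a5, Slc38a2 and Gclc). Alternatives left out each array or changed the pseudocount, filter, normalization, variance model, probe set rule or replicate block. Gene order and chromosomes come from the GRCm38.p6 RefSeq table, since the values carry no genome build. No sample column was left unmapped.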

Additional observations from a re-analysis of the deposited data

How the results depend on the processing

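With the replicate number as a block, 4 of the 38 genes passed, against 0 without it, and 740 probe sets passed, against 31. The deviations of same-numbered arrays from their group means correlated at 0.35 across probe sets; there are 2 pairs only, and no label ties same-numbered cultures together. Leaving out 1 array gave 0 to 1 passing genes (Phgdh without original 1 or resistant 2) and 81 to 125 probe sets. Other settings passed 0 of the 38 genes, while the count of probe sets was 5 with no filter, 11 with a filter at the 60th percentile, 8 with quantile normalization and 5 in limma without a trend. Filtering on the mean of log2 signals, chosen after seeing the data, gave 23 probe sets. Leaving out 1 array moved the median log2 fold change of the stress effectors over -0.19 to 0.55, of the eIF2 kinases and phosphatase over -0.27 to 0.28, of the serine and one-carbon genes over -0.43 to -0.04, of the transporters over -0.23 to 0.12 and of the synthetases over -0.22 to 0.000566. With the filter at the 60th percentile the median was -0.49 for the eIF2 kinases and phosphatase, where 1 gene was left, and -0.31 for the other synthesis genes, where 3 were left. The cause of the other shifts was not tested. Of the 38 genes 20 kept their sign in every alternative that measured them. Signals near or under the filter, as for Cth in resistant cells, limit the size of its fold change.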

Other observations

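Atf3, a stress-induced partner and target of ATF4, was dim on all arrays, with signals of 2.1 and 7 in the resistant pool and 34.7 and 40.6 in the original population. Its groups did not overlap, but it lay under the filter and was not tested. Atf5, another factor of the response, had 688.6 and 703.8 in resistant cells, against 547.6 and 432.8 in original cells, a log2 fold change of 0.51 (adjusted p = 0.579; 0.101 with the replicate number as a term). Bcat1, the cytosolic aminotransferase of branched-chain amino acids, had 620 and 1246.5 in resistant cells and 558.4 and 755.2 in original cells, whereas its mitochondrial relative Bcat2 had 39.2 and 48.1 in resistant cells and 87.5 and 73.3 in original cells, and neither passed in a fit. Tars2, the mitochondrial threonine synthetase gene on chromosome 3, had 501.9 and 506.9 in resistant cells and 715 and 695.8 in original cells (-0.48, adjusted p = 0.576). These genes were named after their values were seen.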
